A study of Capra hircus with 4 samples.

Results

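MTA1, RBBP7 and MYSM1 are 3 chromatin regulator genes that were listed as predicted cis targets of differential long non-coding RNAs (lncRNAs) in goat endometrium. They are 3 of the 387 predicted target genes of the study. The genes were taken by symbol from the deposited table of targets, together with every lncRNA transcript whose locus lay within 100 kb of the gene locus. That gave 89 of the 226416 lncRNA transcripts. The genes were thus chosen by a measured value, the authors' call of a nearby lncRNA between the stages. The values of that contrast at these loci are therefore given as a description, with no test.

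Endometrium, the lining of the uterus, came from receptive goats at gestational day 15 and from pre-receptive goats at gestational day 5, with 2 libraries per stage. All were healthy multiparous Xinong Saanen dairy goats of 24 months of age that had been synchronised in estrus, mated naturally and euthanised under barbiturate, 10 per stage. Whether a library holds RNA of 1 goat or of several is not stated. The libraries, from which ribosomal RNA had been removed, kept the strand and were read from both ends. The authors compared a set called T with a set called C. That table is titled for receptive against pre-receptive endometrium. Which of the letters stands for which stage is not said in the labels or headers used here, so directions are given as T against C. The columns of values per library and per set carry the letters T and C, but their names match no sample title and no stage. They were therefore left unused, and no level of any lncRNA is printed. Depth per library is unknown here, and the tables used hold no marker genes with which to check the tissue.

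Chromatin regulators set how tightly DNA is packed on histones and so which genes can be read. The NuRD complex joins a nucleosome remodelling ATPase with histone deacetylases and is known mainly for repression. MTA1 is a scaffold subunit of NuRD that binds the deacetylases. RBBP7 is a histone-binding WD40 protein that NuRD shares with other complexes, among them the Polycomb complex PRC2. MYSM1 is a metalloprotease that removes ubiquitin from histone H2A, a mark placed by Polycomb complexes. The files also annotated the genes as chromatin regulators. The authors' GO table listed MTA1 and RBBP7 under "NuRD complex" and MYSM1 under "histone deubiquitination" and "histone binding". RefSeq's table of genes (assembly ARS1.2, used for names and a count of genes) gave the same symbol to 2 of the 3 gene identifiers and listed that of MTA1 as LOC102190739.

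The 89 lncRNA transcripts were spread unevenly over the genes. MYSM1 had 54, MTA1 had 20 and RBBP7 had 15. Of these 89, 4 were in the authors' list of differential lncRNAs (4.49%), 1 beside MTA1, 2 beside RBBP7 and 1 beside MYSM1. Over all transcripts the list held 668 calls, or 0.295%, split into 0.177% higher in T and 0.118% lower. Within 100 kb of any of the 387 target genes, 273 of 5410 transcripts were called (5.05%). As the genes were chosen through these calls, nothing is read from the shares. Each of the 4 called lncRNAs had its gene as the sole predicted target, and 0 of the 4 had a q under 0.05, against 12 of all 668 calls (1.8%).

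**Figure D1:**
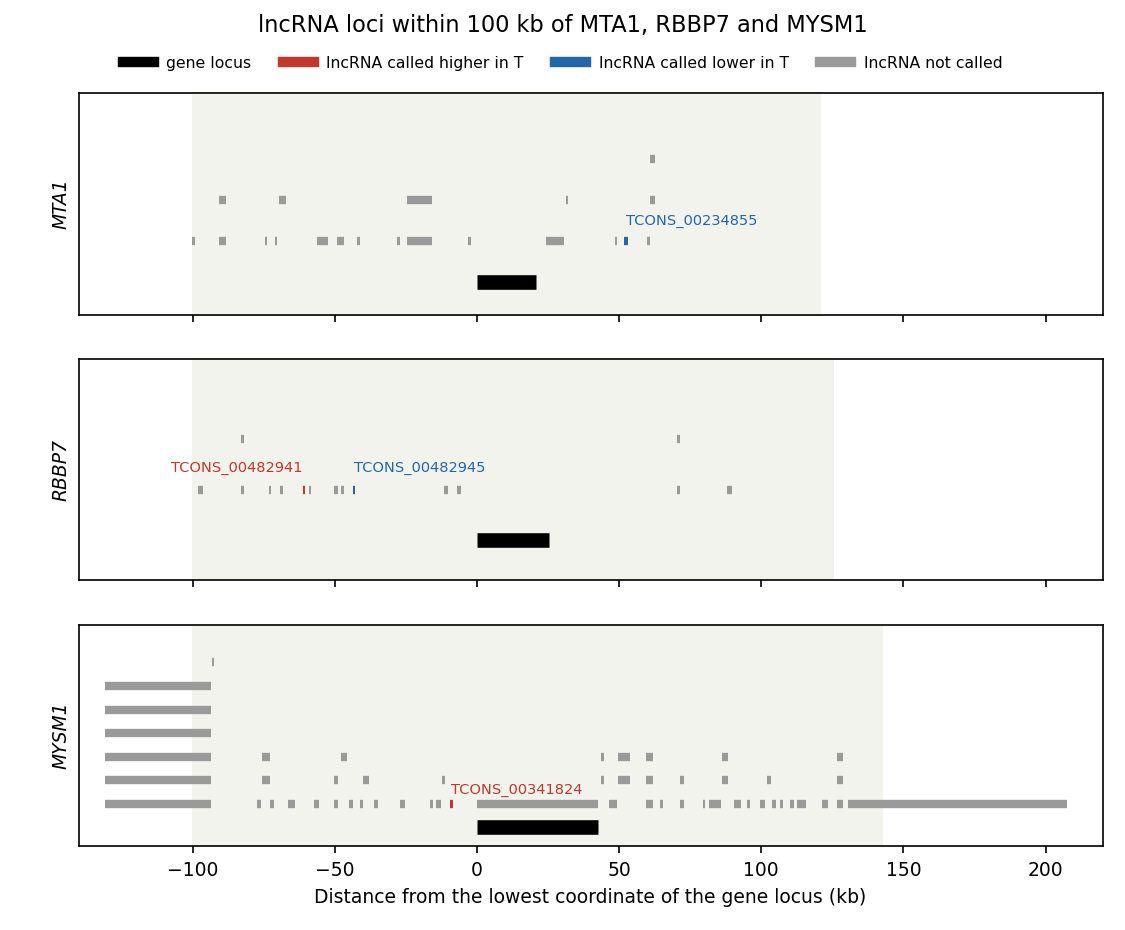
Position of the 89 lncRNA loci (thin bars) around MTA1, RBBP7 and MYSM1 (black bars), in kb from the lowest coordinate of each gene locus; the shaded area is the window of 100 kb on both sides, and the height of a bar has no meaning. The called lncRNA of MYSM1 lies 8.90 kb from its gene, that of MTA1 30.9 kb, and those of RBBP7 43.1 and 61.1 kb, both on the side of lower coordinates.

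At MTA1 (gene 102190739, chromosome 21, 66709755 to 66730558 in the deposited coordinates), the called lncRNA was lower in T. The sources used here give no genome build for these coordinates. TCONS_00234855 lay at 66761429 to 66762899, an intergenic locus 30.9 kb beyond the end of the gene with higher coordinates. Its log2 change, T over C, was -3.29 in the authors' deposited table, or 9.81-fold lower in T, with a p of 0.0322 and a q of 0.785. In a bulk sample, fewer cells of a type and less RNA per cell cannot be told apart. Its fold was large but its p was among the weaker ones. The 237 lower calls above 0 in both sets had a median log2 change of -1.94, and 17 of them had a more negative change than TCONS_00234855. By p, 145 of the 237 had a smaller value, and it ranked 549 of all 668 calls. At 1470 bp between its ends its locus was among the shorter ones of these 237, with 22 shorter and a median of 4464 bp. It was not short among all 668 calls, of which 364 were shorter, with a median of 1265 bp. Such a span is the extent of the listed locus and not the length of the transcript. The difference was not set against the spread between libraries, since the columns of values per library were not used.

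The transcripts of MTA1 itself were not listed with a p under 0.05. Of its 2 listed transcripts, TCONS_00234845 was listed higher in T and TCONS_00234846 lower, both with p = 1 in the authors' deposited table. A p of 1 was given to 549 of the 816 target transcripts with a direction (67.3%), and the headers used here do not say whether these were tested. The other 19 lncRNA transcripts around MTA1 were not called, and 7 of them lay nearer to the gene than TCONS_00234855. Nearest were TCONS_00234842 at 66706653 to 66707859, with a gap of 1896 bp, and TCONS_00241931 at 66734051 to 66740245, with a gap of 3493 bp on the other side. The longest locus, at 66685297 to 66694130, was shared by TCONS_00234838 and TCONS_00241929. The next called lncRNA on the chromosome, TCONS_00234743, was 996 kb away from TCONS_00234855, so the call stood alone.

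At RBBP7 (gene 102174921, chromosome X, 114993956 to 115019324), 2 called lncRNAs on the same side of the gene went in opposite directions. TCONS_00482941, at 114932650 to 114932885, lay 61.1 kb from the gene. Its change was infinite upwards, as it was above 0 in T and at 0 in C, and the authors' deposited table gave it p = 0.0057 and q = 0.457. TCONS_00482945, at 114950386 to 114950901, lay 43.1 kb from the gene. Its change was infinite downwards, as it was at 0 in T and above 0 in C, and the authors' deposited table gave it p = 0.00895 and q = 0.508. The lncRNA farther from RBBP7 was thus found in T and listed at 0 in C, and the nearer one the reverse. The loci were 17.5 kb apart, and 3 transcripts that were not called lay between them. Of the 387 target genes, 45 had more than 1 called lncRNA as a pair, and RBBP7 was the 1 gene among them with pairs in both directions. A value listed at 0 gives no fold, and can be a failed estimate.

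The RBBP7 lncRNAs came from classes of call of unlike size. A 0 in C was listed for 354 of the 668 calls, the class of TCONS_00482941, and a 0 in T for 30, the class of TCONS_00482945. Of the remaining 284 calls, above 0 in both sets, 47 were higher and 237 lower in T. By p, 92 of the 354 had a smaller value than TCONS_00482941, and 19 of the 30 a smaller one than TCONS_00482945. Both listed loci were short. TCONS_00482941 had 235 bp between its ends, and 3 of all 668 calls were shorter, against a median of 1265 bp. TCONS_00482945 had 515 bp, near the median of 494.5 bp of its class. Calls with a 0 on either side had shorter loci as a group than the lower calls above 0 in both sets, with a median of 571 bp where the 0 was in C.

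**Figure D2:**
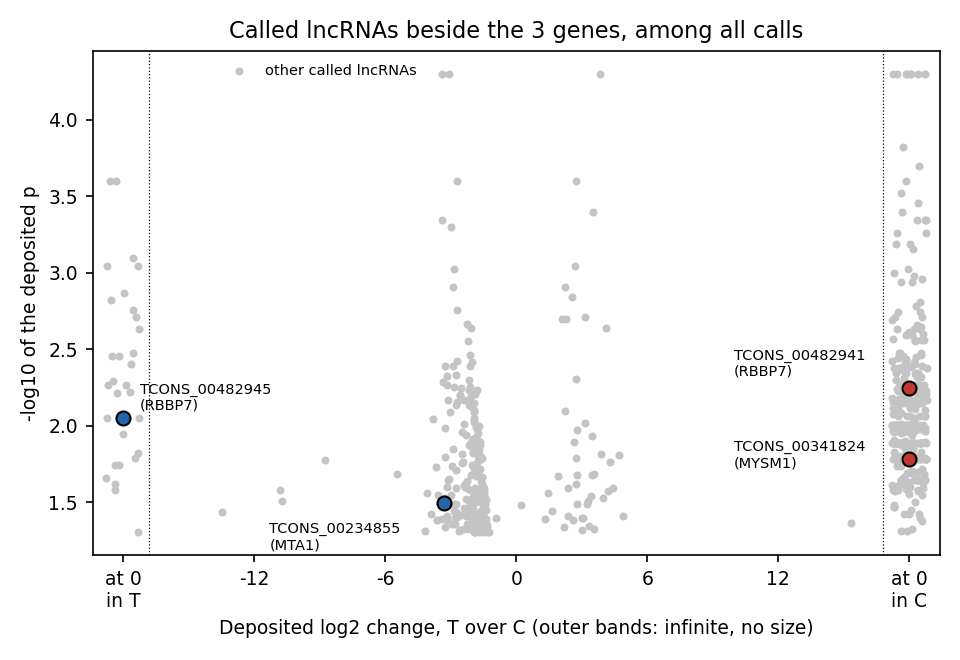
Deposited log2 change of T over C (x axis) and -log10 of the deposited p (y axis) of the 668 called lncRNAs; calls at 0 in T or in C have an infinite change and are spread at random within the outer bands. The 4 lncRNAs beside the 3 genes are ringed in black, red where higher and blue where lower in T. TCONS_00234855 lies low in the cloud of lower calls with a log2 change of -3.29, and the other 3 lie in the outer bands.

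Of the 6 listed transcripts of RBBP7 itself, 5 were listed lower in T and 1, TCONS_00482954, higher. Lower was also the direction of 68.3% of all 816 target transcripts. The authors' deposited table gave TCONS_00482950 as lower with p = 0.03745, or rank 34 of 816, which missed the threshold after Benjamini-Hochberg adjustment over the 816 target transcripts (adjusted p = 0.899). In the authors' deposited table TCONS_00482952 was lower at p = 0.454, and the other 4, among them TCONS_00482949, TCONS_00482953 and TCONS_00482955, had p = 1. The direction of TCONS_00482950 was that of TCONS_00482945 and the opposite of that of TCONS_00482941. Over the 12 pairs of an RBBP7 transcript with a lncRNA, 6 had the same direction and 6 the opposite one, which follows from the opposite directions of the lncRNAs.

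The transcripts around RBBP7 lay mostly on 1 side of the gene. Of its 15 lncRNA transcripts, 12 lay on the side of lower coordinates and 3 on the other, and their loci covered 6.01% of the window. Nearest was TCONS_00496160 at 114987066 to 114988363, with a gap of 5593 bp, and 2 transcripts lay nearer to the gene than TCONS_00482945. On the other side the nearest were TCONS_00482956 and TCONS_00496165, which shared the locus 115064423 to 115065339 at a gap of 45099 bp. The longest, TCONS_00482958 at 115081832 to 115083694, had 1862 bp between its ends. None of these was called.

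At MYSM1 (gene 102168963, chromosome 3, 83865897 to 83908435), the called lncRNA was higher in T and was the closest of the 4 to its gene. TCONS_00341824, at 83856566 to 83856999, lay 8.90 kb from the gene and was the nearest listed lncRNA on the side of lower coordinates. By listed locus, 6 transcripts lay nearer to the gene, none of them called. TCONS_00341824 was above 0 in T and at 0 in C, and the authors' deposited table gave it p = 0.0165 and q = 0.579. Of the 354 calls with a 0 in C, 263 had a smaller p. It had 433 bp between its ends, and 85 of the 354 were shorter. The nearest other called lncRNA, TCONS_00329273, lay 378 kb away.

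The transcripts of MYSM1 were not listed with a p under 0.05 either. In the authors' deposited table TCONS_00329204 was higher at p = 0.767 and TCONS_00329206 lower at p = 0.839. The remaining transcripts, TCONS_00329207 and TCONS_00329213, were lower in that table at a p of 1. Of the 4, 1 went the way of TCONS_00341824 and 3 the opposite way. A p that misses the threshold does not show that the levels were equal, and no level of a target transcript was given in the tables used.

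MYSM1 had more lncRNA transcripts around it than any other of the 387 target genes. Its 54 transcripts compare with a median of 20 per target gene, with quartiles of 13 and 26 and a lowest value of 5. The next highest were CHN2 and LOC102170664, which had 52 each, as they share 1 listed locus. MTA1, with 20, was at the median, and RBBP7, with 15, had more than 114 of the genes. Per 100 kb of window MYSM1 had 22.3, MTA1 9.06 and RBBP7 6.66, against a median of 7.99, and MYSM1 was second to LOC102187955 with 24.6. With each distinct listed locus counted once, MYSM1 had 39 and ranked 3 of 387, against a median of 16. Neighbouring genes share windows, so these counts are not independent of each other, and no test was made.

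**Figure D3:**
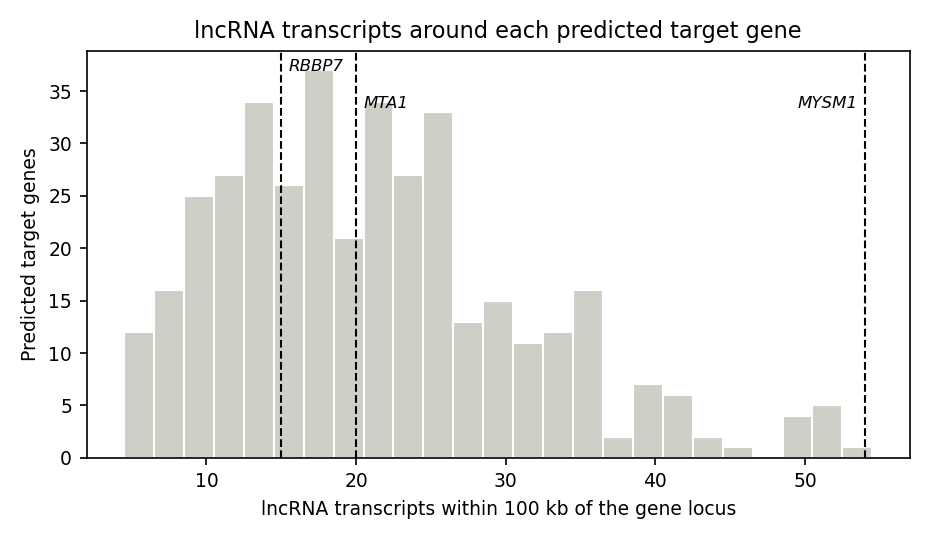
Number of the 387 predicted target genes (y axis) by the number of lncRNA transcripts within 100 kb of the gene locus (x axis, bins of 2 transcripts); dashed lines mark the 3 genes. MYSM1 with 54 stands at the upper end, whereas MTA1 with 20 and RBBP7 with 15 lie in the middle of the distribution.

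The transcripts around MYSM1 lay on both sides, 25 at lower and 28 at higher coordinates, with 1 whose listed locus overlapped that of the gene. That 1, TCONS_00341827, was listed at the same locus as MYSM1 yet had the class code for intergenic transcripts, and it was not called. A shared locus does not show that the transcript itself overlaps the gene. Of the 387 target genes, 54 had an intergenic transcript whose locus overlapped that of the gene. Listed loci were also shared between transcripts. Of the MYSM1 transcripts, 24 (44.4%) lay on a locus listed for several transcripts, against 30.0% at MTA1, 26.7% at RBBP7 and 28.7% of all transcripts. The locus at 83735123 to 83772252 alone held 6, among them TCONS_00329183, and reached beyond the window. Nearest at higher coordinates were TCONS_00329214 and TCONS_00341828, which shared the locus 83909424 to 83910764, with a gap of 989 bp. The longest locus was that of TCONS_00329241, with 76812 bp between its ends at 83996512 to 84073324.

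In class, span of the locus and coding scores, the transcripts around the 3 genes were close to the table they came from. All 89 had the intergenic class code, as had 98.3% of all transcripts. The median distance between the ends of a locus was 1556 bp, against 1424 bp over all transcripts. The CPC and CNCI scores, in which a value below 0 stands for a non-coding transcript, had medians of -1.13 and -0.03, the same to 2 decimals as over all transcripts. Among the called lncRNAs, TCONS_00482941 had a CPC score of -1.02, near the highest value of -1 in the table, and a CNCI score of -0.15. TCONS_00482945 had the lowest CPC score of the 15 around RBBP7, at -1.34, but a CNCI score of -0.0004096, the highest value listed. That value was held by 3 of the 15 transcripts around RBBP7, 3 of the 54 around MYSM1 and 1 of the 20 around MTA1. TCONS_00234855 and TCONS_00341824 had CPC scores of -1.10 and -1.11, and CNCI scores of -0.016 and -0.0004096. At the edge of the window, the farthest transcripts inside it had gaps of 99.0 kb at MTA1, 96.3 kb at RBBP7 and 93.6 kb at MYSM1. The nearest outside it had gaps of 109 kb, 105 kb and 132 kb, in the same order of genes.

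Across the 3 genes, 12 target transcripts were listed, 9 lower and 3 higher in T. A p under 0.05 was given to 1 of the 12, lower in T, against 4.41% of all 816 target transcripts in either direction and 3.92% lower. None of the 12 passed adjustment, against 8 of the 816 (0.98%). Of the 18 pairings of target transcripts with their lncRNAs, 8 had the same direction, or 44.4%, against 61.9% of all 929 pairs. An even split was fixed by the opposite directions of the 2 lncRNAs at RBBP7 and of the 2 transcripts at MTA1. That left the 4 pairs of MYSM1, of which 1 had the same direction. Among pairs whose target p was below 1, the same direction was listed for 3 of 6, against 206 of 312. Nothing is read from these shares. Pairs share transcripts and lncRNAs, so these shares describe the deposited lists and not variation among goats.

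**Figure D4:**
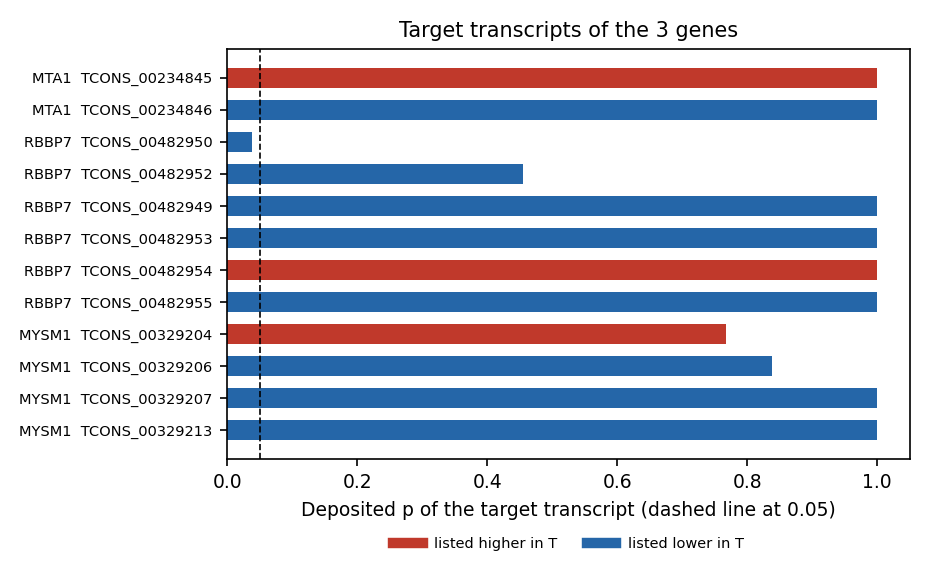
Deposited p (x axis) of each of the 12 target transcripts of MTA1, RBBP7 and MYSM1 (rows), coloured by the direction listed in T; the dashed line marks 0.05. TCONS_00482950 of RBBP7 is the 1 transcript left of the line, and 8 of the 12 have a p of 1.

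In the authors' GO table, the term "NuRD complex" rested on MTA1 and RBBP7 alone. It was given 3 lncRNAs of 200, namely TCONS_00234855, TCONS_00482941 and TCONS_00482945, against 45 of 60755 in the background, and the authors' deposited table gave it p = 0.00045 (rank 11 of 744 terms, adjusted p = 0.0280). Of the 3 lncRNAs, 2 were lower and 1 was higher in T. RBBP7 was counted through both of its lncRNAs here, and it alone gave the 2 lncRNAs of "cellular heat acclimation", for which the authors' deposited table had p = 0.000696 (adjusted p = 0.0324). The term printed as "ESC/E" also rested on RBBP7 alone, and its p of 0.0190 in the authors' deposited table missed the threshold after adjustment (adjusted p = 0.189). MYSM1 gave 1 of the 6 lncRNAs of "metallopeptidase activity", for which the authors' deposited table had p = 0.000109 (adjusted p = 0.0163). It was the 1 gene behind "histone deubiquitination", with p = 0.198 in the authors' deposited table. In all, 22 of the 744 terms listed any of the 3 genes, and 3 of them had an adjusted p under 0.05, against 20 of all terms. The terms count lncRNAs and not genes, and the genes were chosen with these lists known, so the terms support nothing further. None of the 3 genes was listed under any of the 146 KEGG pathways.

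Of the 187 genes on the chromatin lists drawn up here, 2 besides the 3 described were predicted targets. The lists do not hold every chromatin gene. BRD3 and WDR5, named with MYSM1 under "histone binding" in the authors' GO table, were also targets but on none of the lists. Of 15 NuRD subunits, 3 were targets: MTA1, RBBP7 and MBD2, whose product binds methylated DNA. Without MTA1 and RBBP7, by which the list was chosen, 1 of 13 was a target (7.69%), and nothing is read from that share. The lncRNA beside MBD2, TCONS_00273902 (chromosome 24, 53546959 to 53547870), was 32.0 kb away. It was above 0 in T and at 0 in C, and the authors' deposited table gave it p = 0.0216 and q = 0.666. MBD2 was not listed under "NuRD complex". Its 2 transcripts were listed lower, with a smallest p of 0.854 in the authors' deposited table. The 4 lncRNAs of the NuRD subunits were thus 2 higher and 2 lower in T. The 10 transcripts of these genes were 2 higher and 8 lower, with 0 past an adjusted p of 0.05. Among all 816 target transcripts, 68.3% were lower and 0.98% had an adjusted p under 0.05.

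Of 32 genes that write or erase ubiquitin on histone H2A, MYSM1 was the 1 target. Of 15 histone acetyltransferases, KAT6A was a target, and its lncRNA TCONS_00297026 was above 0 in T and at 0 in C, for which the authors' deposited table had q = 0.551 and p = 0.01305. There were 0 targets on the lists of 18 histone deacetylases and sirtuins, 27 SWI/SNF subunits, and 42 histone methyltransferases and demethylases. The lists of 24 SIN3 and CoREST subunits, and of 17 partners of RBBP4 and RBBP7 in PRC2, CAF-1, NURF and HAT1, also held 0. RBBP7, which NuRD shares with other complexes, was placed on the NuRD list alone, so these counts of 0 leave it out. In all, 5 of the 187 listed chromatin genes were targets (2.67%), and 2 of 184 without MTA1, RBBP7 and MYSM1 (1.09%). By gene identifier, 291 of the 20572 protein-coding genes in the RefSeq table were targets (1.41%). That share leaves out target genes not held there as protein-coding. The lists were matched to all target genes by symbol, and 182 of the 187 listed genes were found in the RefSeq table. The lists were drawn up around the 3 genes, so nothing is read from the shares. Their 6 lncRNAs were 4 higher and 2 lower, with 0 below a q of 0.05. Their 16 transcripts were 3 higher and 13 lower, with 1 at a p under 0.05, against 68.3% lower and 4.41% under 0.05 among all 816. Being a target depends on the lncRNAs nearby, and the counts say nothing of how strongly the listed genes themselves were expressed.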

How the data were processed

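The deposited tables held lncRNA positions, the authors' comparison of set T with set C, predicted targets, and GO and KEGG tests. The submitters' processing notes name TopHat, TopHat2, Cufflinks and Cuffdiff, without a role. The log2 fold change (T over C, infinite where a set is at 0), p-values and q-values are the authors', per the file headers. CPC and CNCI scores are the authors' values per transcript. The counts of lncRNAs per GO term were deposited by the authors.

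Of the columns of values, 6 (4 named for single libraries, 2 for the sets) carry the letter T or C but match no sample label, and were not used, so the limma fit planned on them was not run. Gaps between nearest ends were computed from deposited loci. Target p-values were adjusted by Benjamini-Hochberg over 816 transcripts, and GO p-values over 744 terms, with a threshold of 0.05. The window search and the adjustment were tested on simulated data. The genes, chromatin lists and tests were chosen with earlier results of these data known.

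Named lncRNAs were all called ones, the nearest on each side and the longest per gene, and named genes up to 4 targets per list. CHN2, LOC102170664, LOC102187955 and the next called lncRNAs were chosen after their values were seen. Figures were drawn with matplotlib 3.10.9, and values computed with pandas 2.3.3, numpy 2.4.6 and scipy 1.17.1 under Python 3.11.15.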

Additional observations from a re-analysis of the deposited data

How the results depend on the processing

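With a window of 10 kb, the lncRNA transcripts numbered 2 at MTA1, 1 at RBBP7 and 7 at MYSM1, and the called ones 0, 0 and 1. With 50 kb they numbered 13, 7 and 29, and RBBP7 kept 1 call. With 200 kb RBBP7 had 32, while MTA1 had 23 and MYSM1 71. At a q under 0.05 each gene had 0 calls, against 12 of all 668 calls (1.8%). Counting loci once, chosen after seeing the data, gave 17, 13 and 39. When those target transcripts listed with a p of 1 were left out of the adjustment, TCONS_00482950 of RBBP7 had an adjusted p of 0.294, and with Bonferroni 1. Looking up gene identifiers moved no list count. No paired analysis was possible because the columns of values carry no replicate number of the labels. The stages also held different goats, 10 per stage and 20 in the study, so a replicate number would pair no goat with itself. Other pseudocounts, a filter on low values and leaving out replicates were not run, as columns that match no sample label were left unused although their names carry T or C. Whether a call rests on 1 library was not tested.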
